A study of Mus musculus with 8 samples.

Results

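The genes described here are 37 genes of inflammatory signalling in mouse liver: cytokines and their antagonist and receptor, chemokines, the subunits and inhibitors of the transcription factor NF-kB, and genes that NF-kB induces. They were chosen by gene name from among 24029 genes named on the array, with no measured value in the rule. The list was drawn up with earlier results of these data known, so it was given no test as a group. Each gene is represented by its brightest probe past the detection filter, and genes with several probes are given with all of them. Liver RNA came from 12-week-old bl6 mice on chow, taken on day 6 after a virus. The control group (4 arrays) received pblockITcontrol and the shRaly group (4 arrays) received pblockITshRaly, an adenoviral construct against Raly, at a dose of 2e+09 whose unit the labels do not give. Raly is an hnRNP family gene whose protein binds RNA. Both groups thus received a virus, and no uninjected group was analysed here. The samples are numbered in their titles, which do not say that each is a separate mouse, so p-values measure only the spread between these samples.

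NF-kB is held in the cytoplasm by IkB proteins until a signal from a receptor of tumour necrosis factor, interleukin 1 or microbial products leads to phosphorylation and degradation of IkB. The freed dimers of Rel-family subunits then switch on cytokines, chemokines, adhesion molecules and also the pathway's own inhibitors, so that the response limits itself. In liver, Kupffer cells are a main source of the cytokines, while hepatocytes, endothelial cells and stellate cells both respond to them and release chemokines that draw in leukocytes.

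The 8 arrays lay on 1 slide, with the controls in slide row 1 and the shRaly arrays in slide row 2, so row and group cannot be told apart. Between 45.9% and 51.1% of spots were well above background, lowest on shRaly 2, and shRaly 1 stood apart on the second principal component. Raly signal on the shRaly arrays lay below every control (log2 fold change -0.68, SE 0.15, n = 4 and 4), with an exact two-sided permutation p of 0.0286, the smallest that 4 against 4 arrays can give, and a limma adjusted p of 0.0748. On shRaly 2 the Raly signal was the highest of the group, at 80.8% of the control mean. Hepatocyte markers, 10 of 10 above background on all arrays, summed to 96.0% to 105.5% of the control mean in controls and 81.5% to 105% on shRaly arrays. No gene of the 9 cell type marker lists examined passed the threshold used throughout, a limma adjusted p of 0.05. A change in a bulk signal can come from fewer cells of a type or from less RNA per cell, which cannot be told apart here.

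Most of the 37 genes were measurable in these livers. A probe of 28 genes was well above background on all 8 arrays, a share that was 56.9% over all named genes. Another 5 were above background on some arrays only. Tnf, the prototype activator of the pathway, was above background on 2 control arrays and 1 shRaly array, and Il1rn, the antagonist of the interleukin 1 receptor, on 2 arrays of each group. Ccl7 was above background on 1 control and 3 shRaly arrays, Rel on 1 control array, and Tnfaip6 on 4 shRaly arrays with its represented probe. Il6, Il10, Cxcl2 and Cxcl13 were not well above background on any array. With a probe required above background on at least 4 of 8 arrays, 31 of the 37 genes were tested, and Tnf, Il6, Il10, Cxcl2, Cxcl13 and Rel were not.

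Of these genes, 1 passed the threshold as higher and 0 as lower. The probe that stood for this 1 gene entered the test only through the group where its signal was high. The gene was Tnfaip6, which encodes a secreted hyaluronan-binding protein induced by tumour necrosis factor and interleukin 1. Its probe was above background on 4 shRaly and 0 control arrays. For this probe and scaling the shRaly signal was at least 1.61-fold higher as a bound. The measured log2 fold change of 1.58 (SE 0.20, limma adjusted p = 0.0169) is given as a description. A neighbouring Tnfaip6 probe, which met the filter with 2 arrays of each group, gave -0.06. With genes limited to those above background on all 8 arrays, 28 members were tested, with 0 higher and 1 lower (Il1b, limma adjusted p = 0.0433), and Tnfaip6 was not among them. The other 30 tested genes did not pass the threshold of 0.05 after Benjamini-Hochberg adjustment over all 14871 genes tested. Of all genes tested, 1.22% passed, 0.309% as higher and 0.915% as lower, and 1 call among 31 says nothing of the group as a whole. Unadjusted limma p-values lay under 0.05 for 9 members, 7 higher and 2 lower, against 16.1% of all genes. The 7 include Tnfaip6. With genes limited to those above background on all 8 arrays, 8 of the 28 members had such a p-value. In 7 members every shRaly array lay on one side of every control array, where 10.4% of all genes did so. Of these, 5 were higher (Il1r1, Ccl3, Ccl4, Tnfaip3 and, through the filter, Tnfaip6; 3.93% of all genes were separated in that direction) and 2 were lower (Il1b and Ccl9; 6.46%). The median log2 fold change of the 31 was 0.10, against -0.02 over all genes, and 19 of 31 were positive, where 46.2% of all genes were. The 31 include Tnfaip6 and Ccl7, whose probes met the filter only or mainly through the shRaly arrays. Over the 28 members above background on all 8 arrays the median was 0.07, against -0.02 over all genes so limited. An absolute log2 fold change of at least 0.5, seen in 7.38% of all genes, was reached by Il1b, Ccl3, Ccl4, Ccl7, Tnfaip3, Tnfaip6 and Vcam1. Of these, Ccl7 and Tnfaip6 were above background on more shRaly than control arrays.

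**Figure D1:**
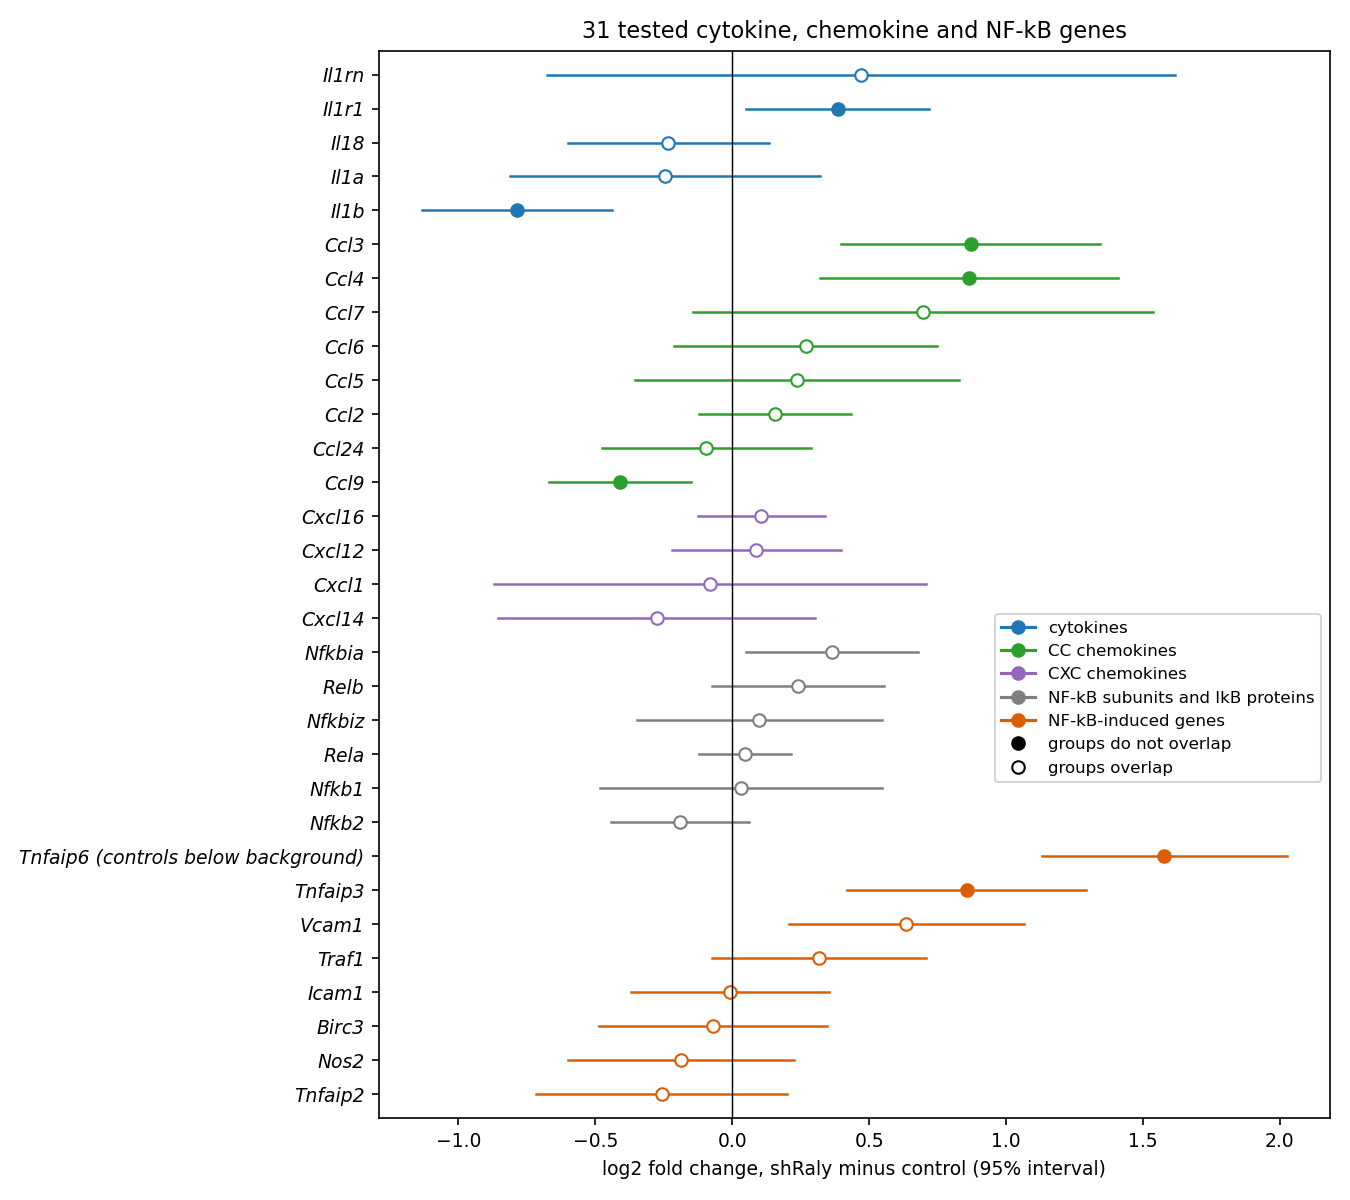
Log2 fold change (shRaly minus control, horizontal axis) with its 95% interval for the 31 tested genes, grouped by role on the vertical axis; filled points are genes whose 4 shRaly and 4 control arrays do not overlap. The Tnfaip6 point at 1.58 is measured against control arrays that were not above background. Only a bound of 1.61-fold holds there, for this probe and scaling. Ccl3, Ccl4 and Tnfaip3 lie between 0.86 and 0.87, Il1b at -0.78, and the CC chemokines hold points on both sides of 0.

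Among the cytokines, 0 of 5 tested genes passed the threshold, and the groups did not overlap for Il1b and Il1r1. Il1b encodes interleukin 1 beta, made by macrophages and neutrophils as a precursor that caspase 1 cleaves. Its signal was 94.0%, 96.6%, 118.8% and 92.7% of the control mean on control 1 to 4, and 64.1%, 68.1%, 43.6% and 59.6% on shRaly 1 to 4. All 4 shRaly arrays lay below all 4 controls, shRaly 3 lowest. The log2 fold change was -0.78 (SE 0.15), with a limma adjusted p of 0.0505, just on the far side of the threshold. Over the alternatives run, that p ranged from 0.0401 to 0.154, and it was under the threshold with quantile normalization, with median scaling, with genes limited to those above background on all 8 arrays, and without shRaly 2 (0.0442). With normexp background correction the log2 fold change was -0.45 (adjusted p = 0.110). The Il1b probe (chr2:129190347-129190406, mm9, minus strand) is printed in 10 spots per array. Their standard deviation within an array had a median of 0.12 on the log2 scale and a range of 0.05 to 0.22. Between arrays the standard deviation was 0.17 in controls and 0.29 in shRaly.

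Il1r1, the signalling receptor for both interleukin 1 forms, had a positive log2 fold change that did not pass the threshold. Control arrays gave 83.4%, 107.1%, 114% and 98.3% of the control mean, and shRaly arrays 118.2%, 126.5%, 116% and 168%. The groups did not overlap, but the gap between control 3 and shRaly 3 was narrow, and the log2 fold change of 0.39 (SE 0.15) had a limma adjusted p of 0.249. The groups overlapped with normexp background correction, with median scaling and with the percentile over detected probes.

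The groups overlapped for the remaining tested cytokines. Il1a, the membrane-associated interleukin 1 form, had a log2 fold change of -0.25 (SE 0.25), with controls between 88.7% and 115.5% and shRaly arrays between 60.8% and 144.7% of the control mean. Il18, another caspase 1 substrate, had -0.23 (SE 0.16), at 77.1% to 124.3% in controls and 69.2% to 96.9% in shRaly. Il1rn had 0.47 with an SE of 0.51, and its shRaly arrays ran from 62.4% to 354.5%, a span that covers the whole control range. Tnf was printed in 10 spots per array, of which 29 of 80 were above background, and Il10 likewise with 3 of 80. For these probes the arrays set no level that could be compared between groups.

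Markers of the cells that make interleukin 1 did not separate the groups. Kupffer cell and macrophage markers (11 of 12 above background on all arrays, Timd4 on none) summed to 76.0% to 111% of the control mean in controls and 89.0% to 106.5% in shRaly. Cd5l and Csf1r, the brightest of these, weighed most in the sum and had log2 fold changes of 0.13 and -0.06. Over the 11 tested macrophage markers the median was -0.02, with 5 positive and 6 negative. The lowest was Itgam, at -0.73 (limma adjusted p = 0.355). Neutrophil markers (6 of 10, with Ltf and Ngp on no array) summed to 83.1% to 112.7% and 75.2% to 120.5%. Csf3r, by far the brightest tested neutrophil marker, weighed most in that sum and had a log2 fold change of -0.08. Over the 7 tested neutrophil markers the median log2 fold change was 0.15, with 4 positive and 3 negative. No gene of either list passed the threshold, and their part in the Il1b difference was not tested.

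The CC chemokines were the role with the highest median log2 fold change, 0.25 over 8 tested genes, with 0 past the threshold and 3 at an unadjusted limma p under 0.05. This median includes Ccl7, which met the filter mainly through the shRaly arrays. Ccl3 and Ccl4, released by activated macrophages and lymphocytes, had nearly the same pattern. Ccl3 gave 77.8%, 92.8%, 131% and 105.8% of the control mean on control 1 to 4 and 265.1%, 156.5%, 161.9% and 166.8% on shRaly 1 to 4. Ccl4 gave 69.4%, 94.7%, 127.7% and 119.2% on the controls and 269.1%, 159.1%, 145.1% and 176.4% on the shRaly arrays. For both, every shRaly array was above every control, control 1 was the lowest array and shRaly 1 the highest. The log2 fold changes were 0.87 (SE 0.21, limma adjusted p = 0.0909) for Ccl3 and 0.86 (SE 0.24, limma adjusted p = 0.129) for Ccl4. Without shRaly 1, the array that stood apart on the second component, they were 0.69 and 0.68, and the groups still did not overlap. Over the alternatives the adjusted p of Ccl3 stayed between 0.0782 and 0.224 and that of Ccl4 between 0.077 and 0.281. With normexp background correction their log2 fold changes were 0.39 and 0.52.

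Ccl3 and Ccl4 are neighbours, their probes (chr11:83461358-83461417, minus strand, and chr11:83478052-83478111, plus strand, mm9) spanning 16.8 kb, within a stretch of 139 kb that also holds the probes of Ccl5, Ccl6 and Ccl9. The 60-base probes of Ccl3 and Ccl4 share no run longer than 5 bases, and those of Ccl6 and Ccl9 none longer than 8. The neighbours did not all go one way.

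Ccl9, a rodent chemokine for Ccr1-bearing myeloid cells, was the CC chemokine with the lowest fold change. The controls were tightly grouped at 100.3%, 94.5%, 103% and 102.4% of the control mean, and the shRaly arrays gave 65.8%, 91.9%, 76.0% and 69.5%. All shRaly arrays lay below all controls, shRaly 2 by the smallest margin. The log2 fold change was -0.41 (SE 0.11, limma adjusted p = 0.129). It passed the threshold with normexp background correction (-0.49, adjusted p = 0.0337) and without shRaly 2 (-0.51, 0.0459), in a range of 0.0337 to 0.298 over the alternatives. Ccl6, its closest relative in this group, had a log2 fold change of 0.27 (SE 0.21), with controls at 93.7% to 118.6% and shRaly arrays at 80.9% to 163%.

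Ccl7, like Ccl2 a ligand of Ccr2 that draws monocytes, had a log2 fold change of 0.70 with an SE of 0.37 and a limma adjusted p of 0.399. The controls gave 81.5%, 107.3%, 156.6% and 73.0% of the control mean and the shRaly arrays 210.6%, 75.4%, 213.6% and 204%. All shRaly arrays but shRaly 2 were thus above every control, and shRaly 2 was within the control range. The Ccl7 probe was above background on 1 control and 3 shRaly arrays, so it met the filter mainly through the shRaly group. Its values are therefore given as a description. With normexp background correction the log2 fold change was 0.36 (limma adjusted p = 0.117). Without shRaly 2, the array that differed from its group, it was 1.07 (adjusted p = 0.0775, in a range of 0.0775 to 0.637 over the alternatives), and the groups did not overlap. Ccl2, whose probe lies within 10.1 kb of the Ccl7 probe and is printed in 10 spots, had 0.16 (SE 0.12), at 89.0% to 122.9% in controls and 103.6% to 123.3% in shRaly. Repeated Ccl2 spots had a median standard deviation of 0.09 on the log2 scale. The 95% interval of the Ccl2 difference ran from -0.12 to 0.43 on that scale.

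Ccl5, abundant in T and NK cells, had a log2 fold change of 0.24 (SE 0.26), and control 1, at 55.8% of the control mean, was the lowest of its 8 arrays. Without control 1 the Ccl5 value was -0.04. Ccl24, an eosinophil chemokine of macrophages that acts on Ccr3, had -0.10 (SE 0.17). T and NK cell markers (8 of 11 above background on all arrays, Ncr1 on none) summed to 87.2% to 123.7% of the control mean in controls and 55.9% to 96.3% on shRaly arrays. Cd4, by far the brightest tested marker, weighed most in this sum and had a log2 fold change of -0.75. Of the 9 tested markers, 0 passed the threshold, 6 had a positive and 3 a negative log2 fold change, and the median was 0.06. Their part in the values of Ccl3, Ccl4 and Ccl5 was not tested.

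**Figure D2:**
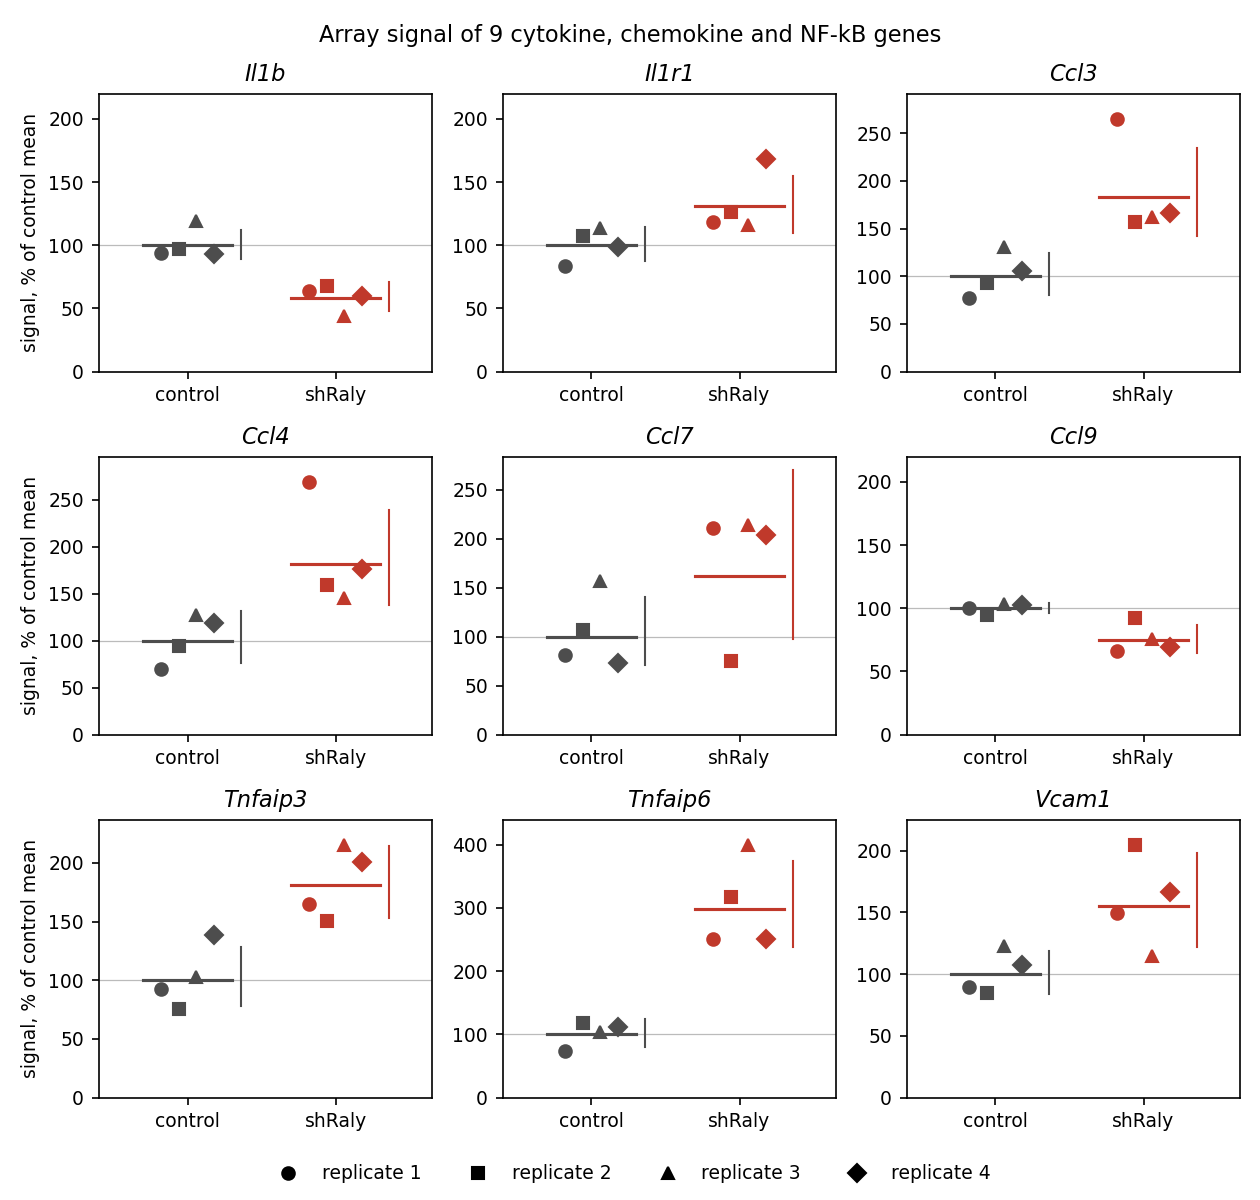
Signal of 9 genes on each array as percent of the control mean (vertical axis from 0, control arrays in grey, shRaly arrays in red, one symbol per replicate number); the horizontal line is the geometric mean and the vertical bar 1 SD on the log2 scale. All shRaly arrays are above all controls for Il1r1, Ccl3, Ccl4, Tnfaip3 and Tnfaip6 (whose controls are not above background) and below them for Il1b and Ccl9, while in Ccl7 shRaly 2 is at 75.4% and in Vcam1 shRaly 3 is at 114.5%.

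The CXC chemokines did not differ past the threshold, with a median log2 fold change of 0.00 over 4 tested genes and 0 at an unadjusted limma p under 0.05. Cxcl1, a neutrophil attractant that acts on Cxcr2 and responds quickly to NF-kB, had -0.08 with an SE of 0.35. Its arrays were widely spread, from 59.7% to 197.1% of the control mean in controls and from 64.2% to 122.2% in shRaly, and the 95% interval of the difference ran from -0.87 to 0.71. The Cxcl1 sign turned without control 1 (0.25) and without shRaly 2 (0.10). Cxcl2, whose probe lies beside that of Cxcl1 within 12.7 kb, was not above background on any array. Cxcl14 had -0.28 (SE 0.26) and Cxcl16, a membrane-bound ligand of Cxcr6, 0.11 (SE 0.10).

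Cxcl12, the ligand of Cxcr4 made by stromal cells, had 2 probes that went opposite ways. The brighter (chr6:117131227-117131286, mm9) gave 126.2%, 84.2%, 91.8% and 102.5% on the controls and 117.1%, 112.4%, 101.1% and 96.0% on the shRaly arrays, a log2 fold change of 0.09. The other (chr6:117125026-117125085, mm9) gave 115%, 80.9%, 103.1% and 104.3% on the controls and 78.3%, 94.0%, 87.9% and 83.5% on the shRaly arrays, at -0.22 (SE 0.12, limma adjusted p = 0.414). The groups overlapped with both probes.

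The subunits of NF-kB and their IkB inhibitors gave no call, and some intervals were wide. The 95% interval of the log2 difference ran from -0.48 to 0.55 for Nfkb1 and from 0.05 to 0.68 for Nfkbia. Of 6 tested genes, 0 passed the threshold, 0 had groups that did not overlap, and the median log2 fold change was 0.07. Rela, the main activating subunit, had the smallest SE of the 31 tested members (0.07) and lay at 97.5% to 104.1% of the control mean in controls and 101.5% to 105.2% in shRaly, with a 95% interval of the log2 difference from -0.12 to 0.21. Nfkb1, the precursor of its usual partner, had 0.03 (SE 0.23) with one probe and 0.25 (SE 0.17) with the other. Nfkb2 and Relb form the dimer of the non-canonical pathway. Nfkb2 had -0.19 (SE 0.11) and Relb 0.24 (SE 0.14), and the other Relb probes gave 0.27 and 0.11. Rel was above background on control 1 only, at 324.5% of the control mean of its probe. The other control arrays gave 97.7%, 62.8% and 50.2% and the shRaly arrays 59.9%, 92.7%, 55.9% and 55.6%, all not well above background.

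Nfkbia encodes IkB alpha, the inhibitor that NF-kB induces to end its own activity. It gave the only unadjusted limma p under 0.05 in its role, at 0.0281, with a log2 fold change of 0.36 (SE 0.14) and a limma adjusted p of 0.248. The controls lay between 85.8% and 122.7% and the shRaly arrays between 114.6% and 153.8% of the control mean, so that control 4 reached into the shRaly range. Nfkbiz, a nuclear IkB protein that works as a co-activator, had 0.10 (SE 0.20).

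Of the 8 genes induced by NF-kB, the 7 above background on all arrays did not pass the threshold. The other, Tnfaip6, passed as higher with a probe that entered the test through the shRaly arrays alone. Tnfaip3 encodes a ubiquitin-editing enzyme that is a major brake on NF-kB signalling. Its signal was 92.8%, 75.8%, 102.6% and 138.5% of the control mean on control 1 to 4 and 164.9%, 150.4%, 215.4% and 201.1% on shRaly 1 to 4. Every shRaly array was above every control, with shRaly 2 closest to control 4. The log2 fold change was 0.86 (SE 0.19) with a limma adjusted p of 0.0763. Over the alternatives that p ran from 0.0439 to 0.212, and it was under the threshold with normexp background correction (log2 fold change 0.61). With median scaling the groups overlapped.

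Vcam1, an adhesion molecule by which activated endothelium holds leukocytes, was measured by 2 probes that gave the same fold change. The brighter gave 89.7%, 84.4%, 122.9% and 107.5% on the controls and 149.4%, 204.8%, 114.5% and 166.3% on the shRaly arrays, where shRaly 3 was within the control range. Its log2 fold change was 0.64 (SE 0.19, limma adjusted p = 0.154). The other probe gave 89.6%, 89.9%, 110.3% and 112.4% on the controls and 153.5%, 171.7%, 138.2% and 159.6% on the shRaly arrays, with no overlap. With that probe in place of the brighter one, an alternative chosen after seeing the data, Vcam1 had 0.63 (SE 0.12) and passed the threshold, with a limma adjusted p of 0.0431 in a range of 0.0431 to 0.333 over the alternatives. Liver endothelial markers (8 of 8 above background on all arrays) summed to 91.8% to 105.4% of the control mean in controls and 76.0% to 94.7% in shRaly, with 0 past the threshold, and their part in the Vcam1 values was not tested.

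Icam1, the companion adhesion molecule of Vcam1, had a log2 fold change of -0.01 with a 95% interval of -0.37 to 0.35. Traf1, an adaptor of tumour necrosis factor receptors, had 0.32 (SE 0.17), with controls at 88.4% to 125% and shRaly arrays at 94.5% to 154.9%. Nos2, the inducible nitric oxide synthase, had -0.19 (SE 0.18). Tnfaip2 had -0.26 (SE 0.20) with one probe and -0.36 (SE 0.18) with the other. Birc3, a ubiquitin ligase in receptor complexes upstream of NF-kB, had 2 probes of opposite sign near 0. The first gave 107.6%, 102.9%, 92.5% and 97.6% on the controls and 87.8%, 107.9%, 129.1% and 67.6% on the shRaly arrays, at -0.07. The second gave 102.6%, 117%, 99.0% and 84.1% and then 175.6%, 118.9%, 70.1% and 81.9%, at 0.07, and its shRaly arrays were ordered differently from those of the first.

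The median over the genes of a role on each array was taken as a description, with no test, over the members above background on all 8 arrays. For the 7 such NF-kB-induced genes it was -0.03, 0.19, 0.20 and 0.07 on shRaly 1 to 4 relative to the control mean, on the log2 scale, and between -0.11 and 0.04 on the controls, so the groups overlapped. The cytokine median was lowest on shRaly 1, at -0.55, and the groups overlapped there too.

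**Figure D3:**
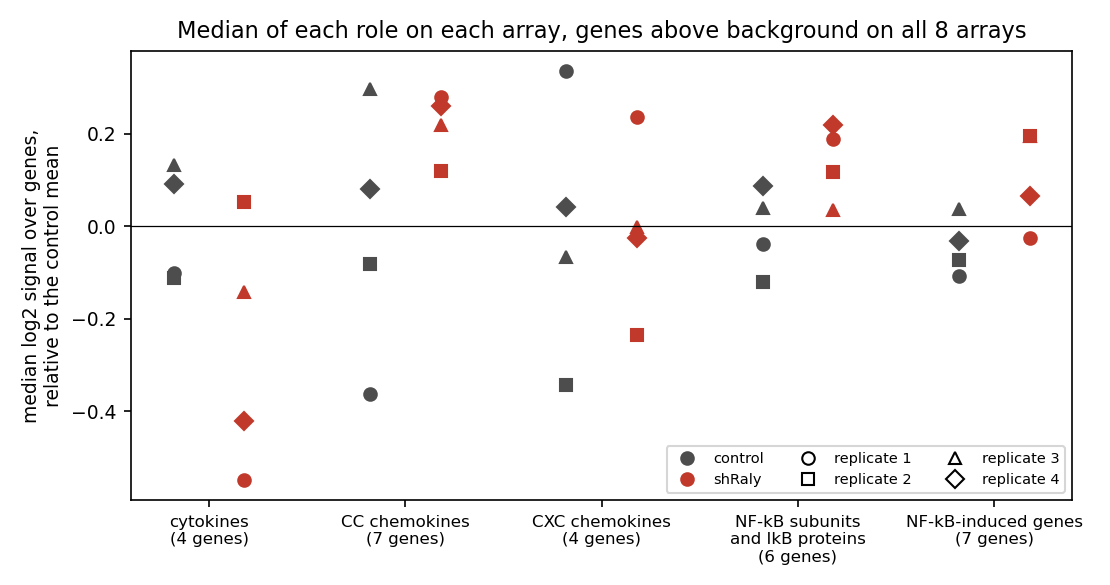
Median log2 signal on each array relative to the control mean (vertical axis) over the genes of each of 5 roles that were above background on all 8 arrays; grey symbols are control arrays, red symbols shRaly arrays, and the shape gives the replicate number. The control and shRaly arrays overlap in all 5 roles; shRaly 2 and shRaly 3 share a place, at 0.19 and 0.20, in the NF-kB-induced genes.

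Tnfaip6 was called on the signal of 1 of its 3 probes. The called probe gave 73.1%, 118.3%, 103.9% and 111.3% of the control mean on control 1 to 4 and 250.5%, 316.6%, 399.6% and 250.3% on shRaly 1 to 4. It was above background on all 4 shRaly arrays and on no control array, so the control level is a bound. Against the lowest signal of probes well above background on each control array, the shRaly mean was at least 1.61-fold higher. The start of each probe, its first 30 bases, is printed to show how the 3 differ in composition, with copies of ATTTA, a motif of unstable inflammatory transcripts, in capitals. The probes lie on chromosome 2 (mm9, plus strand), the called one at chr2:51912073-51912132, a downstream one at chr2:51912142-51912201, with 9 bases between it and the called probe, and an upstream one at chr2:51911507-51911566.
Tnfaip6 called probe: ccaagatctctgagttttctacaaaatggg
Tnfaip6 downstream probe: aATTTAtattaggATTTAaggttgttttca
Tnfaip6 upstream probe: aatgttcaaaacatccagtacaatATTTAt

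The downstream Tnfaip6 probe did not show the difference. It was above background on 2 arrays of each group and gave 58.8%, 95.3%, 157.7% and 113.1% on the controls and 151.6%, 51.8%, 118.8% and 90.5% on the shRaly arrays, a log2 fold change of -0.06 (SE 0.37, limma adjusted p = 0.957). The upstream probe was above background on no array. In base composition, 35% of the called probe, 20% of the downstream and 23.3% of the upstream probe were G or C, against a median of 43.3% over the 55681 probes of the array. Over their full 60 bases they held 0, 2 and 1 copies of ATTTA, which 7.71% of all probes hold. Over all 8 arrays the called and downstream probes had nearly equal mean signals, -4.51 and -4.55 on the log2 scale relative to each array's 75th percentile. On the control arrays the downstream probe was the brighter, at -4.52 against -5.30. On the shRaly arrays the called probe was the brighter, at -3.72 against -4.58. The called probe was thus chosen as the brightest only through its shRaly signal. The call was also lost with the mean of both probes (0.76, limma adjusted p = 0.171), with normexp background correction (0.45, 0.110) and without control 3 (1.60, 0.0527), in a range of 0.0153 to 0.957 over all alternatives.

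**Figure D4:**
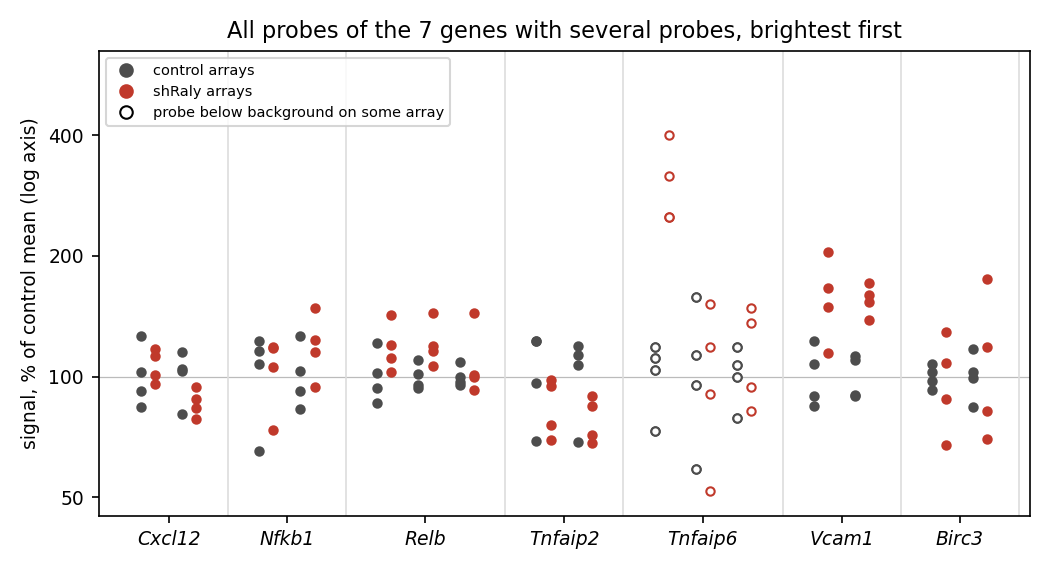
Signal on each array as percent of that probe's control mean (log axis) for all probes of the 7 genes with several probes, brightest first within a gene; open circles are probes not above background on some array. The called Tnfaip6 probe, shown first, has its shRaly arrays at 250.3% to 399.6% while those of the downstream probe span 51.8% to 151.6%, and both Vcam1 probes have shRaly arrays above 100% of the control mean.

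The receptors and signalling proteins around these genes gave no call. Of 54 such genes, 48 were tested, 0 passed the threshold in either direction, and 9 had an unadjusted limma p under 0.05, close to the 16.1% of all genes. Their median log2 fold change was 0.02. Of 28 tested NF-kB signalling genes, 15 had a positive and 13 a negative log2 fold change. An unadjusted limma p under 0.05 was found for 5 of them, 2 higher and 3 lower. The smallest p-values in that list belonged to the kinase Map3k7 and its binding partner Tab1, which carry the signal to the IkB kinase. Map3k7 had controls at 97.0% to 103.6% and shRaly arrays at 63.5% to 82.8% of the control mean, with no overlap (log2 fold change -0.42, SE 0.10, limma adjusted p = 0.0874). Tab1 had -0.62 (SE 0.16, limma adjusted p = 0.0994), with shRaly 1 within the control range. Among cytokine receptors (11 tested), Il6ra had 0.52 (limma adjusted p = 0.125) and Il6st, its signalling partner, -0.31 (0.204). Among chemokine receptors (9 tested, 0 at an unadjusted p under 0.05), Ackr1 had -0.30 and Ccr3 0.18.

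The promoter windows of the members were searched for the kB consensus, the binding motif of NF-kB, on both strands, so that 1 symmetric stretch can count on each. A RefSeq window (GRCm38.p6, 250 bases before to 50 after a transcript start) was at hand for 25 of the 37 genes. Of these, 10 held a match (40%), against 9.55% of 27025 genes. Many members were picked for their known ties to NF-kB, so the higher share reflects the choice of genes and is no result of these data. The 10 were Il1r1, Il6, Cxcl1, Cxcl2, Ccl9, Nfkbia, Nfkb2, Rel, Tnfaip2 and Tnfaip3. The 150 bases before the start are printed for 4 of them, with matches in capitals, because the log2 fold changes of these 4 range from 0.86 for Tnfaip3 and 0.36 for Nfkbia to -0.08 for Cxcl1 and -0.41 for Ccl9. The windows are chr10:19015411-19015560 (minus strand) for Tnfaip3, chr12:55492648-55492797 (minus) for Nfkbia, chr5:90891095-90891244 (plus) for Cxcl1 and chr11:83578637-83578786 (minus) for Ccl9, all on GRCm38.p6.
Tnfaip3 promoter: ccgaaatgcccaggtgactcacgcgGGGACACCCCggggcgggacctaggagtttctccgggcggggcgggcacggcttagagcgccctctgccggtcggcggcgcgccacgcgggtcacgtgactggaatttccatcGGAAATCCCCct
Nfkbia promoter: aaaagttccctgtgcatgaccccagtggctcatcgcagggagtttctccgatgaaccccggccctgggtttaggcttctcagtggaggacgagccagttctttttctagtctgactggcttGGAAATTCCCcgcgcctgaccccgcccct
Cxcl1 promoter: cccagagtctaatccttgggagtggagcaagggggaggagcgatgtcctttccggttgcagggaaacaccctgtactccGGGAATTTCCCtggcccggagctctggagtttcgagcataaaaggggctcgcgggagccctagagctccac
Ccl9 promoter: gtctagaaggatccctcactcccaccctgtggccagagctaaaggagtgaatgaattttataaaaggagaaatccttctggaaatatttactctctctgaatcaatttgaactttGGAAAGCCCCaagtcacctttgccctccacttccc

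Tnfaip3 holds 2 matches, the nearer ending close to the start, and Nfkbia and Ccl9 hold 1 each. The Cxcl1 stretch is symmetric and matches on both strands, in an overlapping pair. The printed genes had log2 fold changes of both signs, and none of them passed the threshold. The Tnfaip6 window held no match. Whether a match goes with a change was not tested. A match is a stretch of letters in a window and says nothing of binding in these livers.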

How the data were processed

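RNA from 8 mouse liver samples (4 control, 4 shRaly) was read on single-colour Agilent arrays of 60-base probes. The deposited intensity values are the processed signal of Agilent Feature Extraction 11.5.1.1, which per the file headers had its background subtracted and was not scaled from array to array. For the present work the log2 intensity was reduced by each array's 75th percentile, outlier spots were left out and repeated spots averaged. Gene names came from RefSeq accessions for 27656 probes, through a table of assembly GRCm38.p6, used for names only. Current symbols named another 3401 probes, older symbols 321 and the name printed for the probe 1775. The members were taken by the name printed for the probe. Probe coordinates are those of the files (mm9), and exon or UTR annotation on that build was not used here.

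Tests were limited to genes whose probe exceeded background clearly on 4 or more of the 8 arrays and had 3 or more values per group, with the brightest such probe standing for the gene. Groups were compared with limma 3.58.1 in R 4.3.3 with Benjamini-Hochberg adjustment over 14871 genes (threshold 0.05), a procedure tested on simulated data. The control mean is the geometric mean over the 4 control arrays. Of the members, all were named. Those past the threshold, with separated groups, with an absolute log2 fold change of at least 0.5, detected in 1 group only, or with probes of opposite sign are given array by array. For each list of neighbouring genes the 2 of smallest p are given. Members and lists were chosen with earlier results of these data known. Alternatives concerned background correction, scaling, filter, probes, the deposited table, replicate block and single arrays left out. The number of arrays limits the precision.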

Additional observations from a re-analysis of the deposited data

Results flagged for a closer look

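In 64 groups of 4 arrays (the tested members and Raly, each group on its own), 5 held 1 array far from the others by Dixon's test, and chance gives about 1 in 20. For Il1b, control 3 was at 118.8% of the control mean, with the other controls at 92.7% to 96.6%. For Ccl6, control 3 was at 118.6%, with the others at 93.7% to 96.0%. For Ccl3, shRaly 1 was at 265.1%, with the others at 156.5% to 166.8%. For Ccl7, shRaly 2 was at 75.35%, with the others at 204% to 213.6%. For Ccl24, control 1 was at 73.24%, with the others at 107.3% to 115%.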

How the results depend on the processing

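The number of members past the threshold (1 higher, 0 lower) became 2 (1 higher, 1 lower) with normexp background correction, quantile normalization and median scaling, and 0 with the mean of all probes. The higher member was Tnfaip3 with normexp and otherwise Tnfaip6, whose probe was above background on the shRaly arrays alone. With probes required above background on all 8 arrays it was 0 higher and 1 lower (Il1b). Leaving out single arrays gave 0 to 3 members (0 to 1 higher, 0 to 2 lower): 0 without control 3 and 3 (Ccl9, Il1b and Tnfaip6) without shRaly 2. Over all genes, the 182 calls (46 higher, 136 lower) became 42 (9 and 33) with no filter and 17 to 285 (4 to 102 higher, 13 to 183 lower) with single arrays left out, the lowest without control 2 and the highest without shRaly 2. Median scaling gave 23 higher and 110 lower. Pathway genes past the threshold were 1 (Tab1) with normexp, with median scaling and without shRaly 1, in a range of 0 to 1 over the arrays left out. Raly passed the threshold with normexp (-0.71) and without shRaly 2, in a range of -0.80 to -0.59 over the arrays left out. The causes were not tested.

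With the replicate block, 46 genes passed (11 higher, 35 lower), among them 1 member, Tnfaip6 (limma adjusted p = 0.0285). Here too the called Tnfaip6 probe entered the test only through the shRaly arrays. Deviations of same-numbered arrays correlated at 0.08, -0.02, -0.07 and 0.14. The labels state no pairing, and these correlations cannot decide whether same-numbered samples were paired.

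Of 31 tested members, 20 kept their sign in every alternative run and 11 turned in at least 1. Signs turned for Rela (-0.026), Icam1 (0.096) and Nos2 (0.087) with normexp, Icam1 (0.012) with the percentile over detected probes, Cxcl12 (-0.067) with the mean of probes, and Cxcl12 (-0.22), Birc3 (0.065) and Tnfaip6 (-0.062) with the second probe. With single arrays left out, Ccl5 ranged from -0.044 (without control 1) to 0.37, Ccl24 from -0.25 to 0.0046 (without shRaly 3), Nfkbiz from -0.028 (without control 2) to 0.24 and Birc3 from -0.22 to 0.097 (without shRaly 4). Cxcl1 ranged from -0.33 to 0.25 and was positive without control 1 and without shRaly 2. Nfkb1 ranged from -0.17 to 0.19 and was negative without control 1, shRaly 3 or shRaly 4. Icam1 ranged from -0.086 to 0.15 and was positive without control 1, control 2 or shRaly 1. The median over members stayed between 0.067 and 0.13. Signal near background limits Tnf, Il1rn, Ccl7, Rel and Tnfaip6.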
